A study of Mus musculus with 6 samples.

Results

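Potassium secretion by marginal cells of the stria vascularis was followed here through 8 genes on 6 oligonucleotide arrays: Kcnq1, Kcne1, Slc12a2, Bsnd, Esrrb, Lrp2, Abcg1 and Shroom3. The genes were chosen by name, as the channel, cotransporter and chloride channel subunit of these cells and further marginal cell genes, and every probe set that the platform annotation assigns to exactly 1 of them was taken. That gave 20 probe sets, groups of short probes that each measure a transcript, of 45037 that are not array controls. The whole annotation names 18193 genes. RNA was taken at postnatal day 10, before hearing starts, from the stria vascularis, an epithelium with its own capillaries in the lateral wall of the cochlea. The 3 control arrays were of mice heterozygous for Slc26a4 (replicates 1, 3 and 5) and the other 3 of Slc26a4 knockout mice (replicates 2, 4 and 6). Slc26a4 encodes pendrin, an anion exchanger, so the controls also carry a disrupted copy of the gene. The labels give neither strain nor the number of animals per array, and p-values therefore measure the spread between these samples, which may be technical.

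Marginal cells face the endolymph and fill it with potassium. On their basolateral side the sodium-potassium-chloride cotransporter Slc12a2 and the sodium pump bring potassium in, and chloride leaves again through chloride channels that need the subunit barttin, encoded by Bsnd. Potassium then leaves across the apical membrane through a channel built of the pore subunit Kcnq1 and the accessory subunit Kcne1, and loss of Kcnq1, Kcne1, Slc12a2 or Bsnd is known to cause deafness.

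The potassium secretion genes differed little between the genotypes, and none passed the test. All 8 genes had at least 1 probe set above the filter on dim values, and 17 of their 20 probe sets were tested. At a limma adjusted p under 0.05, 0 of the 17 were called, against 0.0037% of all 27022 probe sets tested (1 probe set). At an unadjusted p under 0.05 there was 1 of the 17, an Abcg1 probe set that was lower in knockout samples. Of all probe sets 11.7% passed at that p, 9.2% higher and 2.48% lower. With the brightest probe set standing for each gene, log2 differences (knockout minus heterozygous, on log2(signal + 16)) ran from -0.47 for Bsnd to 0.18 for Slc12a2. Their median was -0.035, and the median of all 12421 genes tested was -0.038. Signals of different probe sets depend on their probes and are not compared as levels here. The median size of the difference, without its sign, was 0.086 for the 8 genes and 0.147 for all genes. This comparison was not matched for signal. Apart from Bsnd and Shroom3, the 8 genes lay above the 92nd percentile of signal among genes tested. Their median SD within groups was also lower, 0.141 against 0.211 for all genes. By size of difference Bsnd lay at the 90.9th percentile.

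Most markers of strial cell types lay above the filter, with 11 of 12 intermediate cell and melanocyte genes and 5 of 5 basal cell genes. The filter is set on mean signal and is not a detection call, and 12421 of the 18193 named genes passed it. Of 8 general epithelial markers all 8 were tested, and their summed signal was 29629 to 34612 in heterozygous and 30699 to 33436 in knockout samples. Bone and cartilage markers were higher in every knockout sample than in any heterozygous one for 7 of 7 tested genes. Over all genes this held for 754 of 12421. The listed Bglap and Spp1 had no probe set of their own name. The summed signal of the 7 was 7455 to 10165 in heterozygous and 12231 to 15569 in knockout samples. Endothelial markers summed to 6225 to 10324 in heterozygous and 3139 to 9097 in knockout samples, so the groups overlapped. The sum of 3139 was that of knockout replicate 4. None of these markers passed the adjusted test, and their part in the results was not tested. Fewer marginal cells and less RNA per cell cannot be told apart in such samples. Slc26a4 itself gave 221, 248 and 1006 in heterozygous and 75.5, 106 and 154 in knockout samples, so the groups did not overlap (log2 difference -1.69, limma adjusted p = 0.371, and -1.02 without heterozygous replicate 5). Where its probes lie relative to the deleted part is not given in the sources used here.

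Knockout replicate 4 stood apart in how probe sets of 1 gene related to each other, and this touches several values below. Among 5966 genes with 2 or more tested probe sets, the 2 brightest differed in their deviation from the heterozygous mean by a median of 0.30 (log2) in that array, against 0.20 in knockout replicate 2 and 0.15 in knockout replicate 6. The gap was over 0.5 for 30.4% of genes in knockout replicate 4, 14.2% in replicate 2 and 7.89% in replicate 6. The brightest 2% of genes had a median deviation of 0.23 in knockout replicate 4, while the median over all genes there was -0.096.

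Kcnq1, the pore-forming subunit of the apical channel, was at nearly the same level in both genotypes. Its only probe set (1449464_at) gave 6341, 5351 and 5340 in heterozygous replicates 1, 3 and 5, and 5901, 5326 and 5342 in knockout replicates 2, 4 and 6. In each group 1 array lay above the other two, and the groups overlapped. The means were 5677 ± 575 and 5523 ± 328 (SD, n = 3 each). The log2 difference was -0.037 with a 95% interval from -0.25 to 0.18, which as a fold runs from 0.839 to 1.13. Its sign turned without heterozygous replicate 1 (0.045).

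Kcne1, the accessory subunit that slows the opening of the Kcnq1 channel, was measured by 2 bright probe sets that parted company in a single knockout array. Probe set 1441035_at gave 5144, 5268 and 4921 in heterozygous samples and 5034, 5801 and 4266 in knockout samples. The knockout samples held both the highest and the lowest value, and the log2 difference was -0.033 (95% interval -0.29 to 0.22). Probe set 1420672_at gave 4968, 4293 and 4283 in heterozygous samples and 4336, 3724 and 3787 in knockout samples, a log2 difference of -0.19 (95% interval -0.43 to 0.042, limma adjusted p = 0.508). There the lowest values were knockout replicates 4 and 6, and knockout replicate 2 lay among the heterozygous samples. In knockout replicate 4 the first probe set was 0.18 above the heterozygous mean and the second 0.27 below it (log2 deviation -0.27). Without that array the differences were -0.14 and -0.15. Without knockout replicate 6 the first turned to 0.081.

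**Figure D1:**
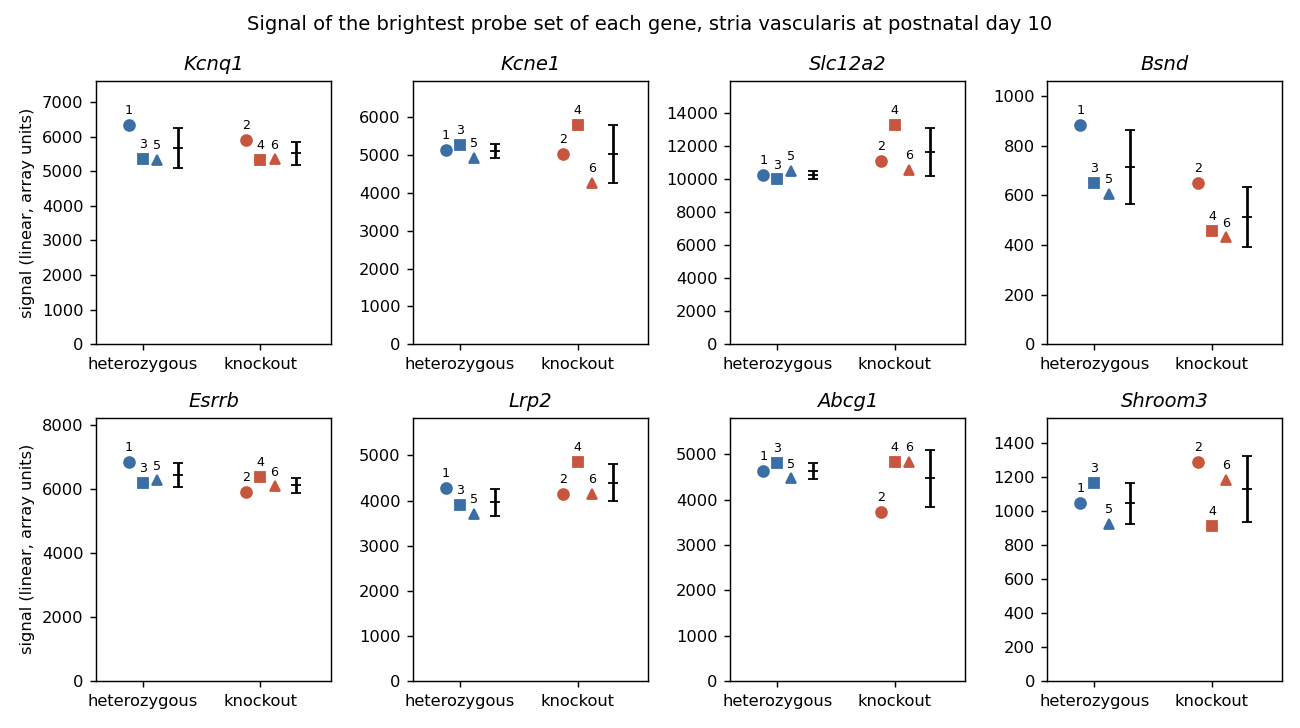
Signal (linear scale, starting at 0) of the brightest probe set of each of the 8 genes in the 3 heterozygous (blue) and 3 knockout (red) arrays, with replicate numbers; black bars show mean ± SD. The genotypes overlap in every panel except Slc12a2, where knockout replicate 4 stands highest at 13294.

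Slc12a2, the basolateral cotransporter, was read near the top of the arrays' scale, and its 3 probe sets did not give 1 answer. Probe set 1417622_at had a signal rank between 16 and 38 of all probe sets in every array. It gave 10280, 9991 and 10506 in heterozygous samples and 11095, 13294 and 10582 in knockout samples. Every knockout value lay above every heterozygous one, the closest pair being 10506 and 10582. The log2 difference was 0.18 ± 0.088 SE (95% interval -0.019 to 0.37, limma adjusted p = 0.464), and an exact two-sided permutation test gave 0.1, the smallest p that 3 against 3 samples allow. Groups that did not overlap were found for 2 of the 17 probe sets of the 8 genes, 1 in each direction, where 17.1% of all probe sets tested did not overlap (11.2% higher and 5.97% lower).

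The other Slc12a2 probe sets lay closer to 0. Probe set 1417623_at gave 7827, 7670 and 7971 in heterozygous and 7723, 7539 and 7845 in knockout samples, a log2 difference of -0.022 (95% interval -0.17 to 0.13). Probe set 1448780_at gave 7426, 7042 and 6802 against 7357, 7790 and 7728, a log2 difference of 0.11 (95% interval -0.059 to 0.27). The groups overlapped in both. For 1417622_at the difference was 0.079 without knockout replicate 4 and 0.026 after quantile normalisation, which gives all arrays the same distribution of values. The whole brightest 2% of genes had a median difference of 0.10.

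**Figure D2:**
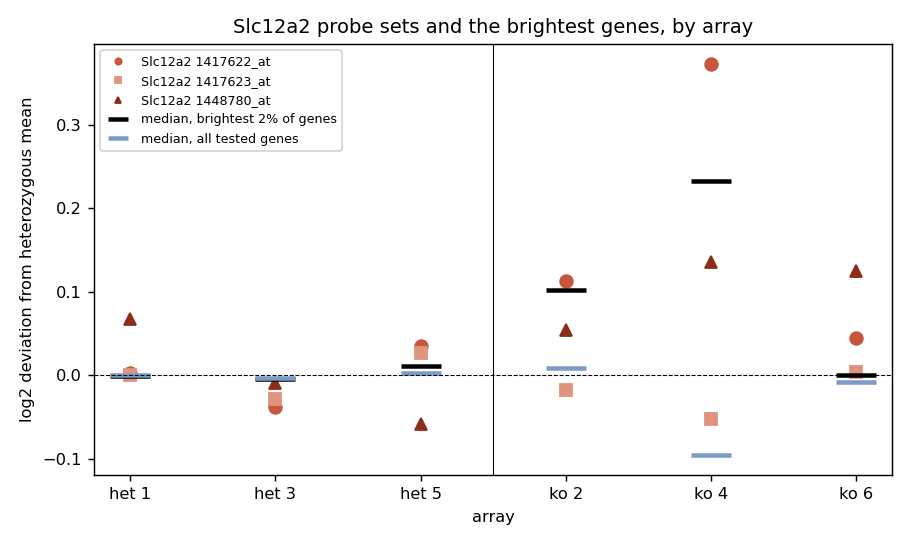
Log2 deviation from the heterozygous mean of the 3 Slc12a2 probe sets (red symbols), with the median of the brightest 2% of genes (black bars) and of all tested genes (blue bars), for each array (het: heterozygous, ko: knockout). In knockout replicate 4 the brightest probe set is at 0.37 and the bright genes at 0.23, while probe set 1417623_at is at -0.053.

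Bsnd, whose product barttin is a chloride channel subunit, had the largest difference of the 8 brightest probe sets. It also had the widest spread within groups of the 8, an SD of 0.30 (log2). Its only probe set (1421482_at) gave 884, 651 and 607 in heterozygous samples and 651, 458 and 431 in knockout samples. Knockout replicates 4 and 6 lay below all heterozygous samples, and knockout replicate 2, at 650.6, lay between heterozygous replicates 3 (651.3) and 5. The means were 714 ± 149 and 513 ± 120 (SD, n = 3 each), a fold of 0.722 (95% interval 0.514 to 1.01). The log2 difference was -0.47 ± 0.22 SE and did not pass (limma adjusted p = 0.443). It stayed below 0 in each of 16 alternative settings, between -0.65 without knockout replicate 2 and -0.28 with array weights. It was -0.31 without heterozygous replicate 1, the highest sample.

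Bsnd was also set against Kcnq1 within each array, as a description of these genes relative to each other. Centred on the heterozygous mean, the log2 ratio was 0.16, -0.030 and -0.13 in heterozygous samples and -0.17, -0.52 and -0.61 in knockout samples. The ratio was thus lower in every knockout sample than in any heterozygous one. The mean difference was -0.43, and the exact two-sided permutation p was 0.1, the smallest possible. Bsnd had been noted in earlier results of these data before this ratio was formed, so its p gives no independent support. Kcnq1 itself differed by -0.037, and the ratio largely repeats the Bsnd difference. The share of other gene pairs whose ratios do not overlap was not computed. In knockout replicate 4 the brightest 10% of genes had a median deviation of 0.094, against -0.096 for all genes. The ratio sets a bright probe set against a dimmer one, and the part of that shift was not tested.

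Esrrb, the orphan nuclear receptor that marginal cells need to form, was steady on its bright probe set and unsteady on a dimmer one. Probe set 1436926_at gave 6867, 6198 and 6276 in heterozygous samples and 5913, 6384 and 6091 in knockout samples. The log2 difference was -0.072 (95% interval -0.25 to 0.11), and the spread within groups, an SD of 0.069, was lower than that of all but 3.36% of genes tested. Probe set 1441921_x_at, whose suffix marks probes that may bind other transcripts, gave 559, 615 and 518 in heterozygous samples and 371, 659 and 664 in knockout samples. Knockout replicate 2 was the lowest sample and the other knockout samples the highest, and the log2 difference was -0.042 (95% interval -0.57 to 0.49). Its remaining probe set (1422986_at) lay under the filter, with signals from 29.4 to 61.7, and was not tested.

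**Figure D3:**
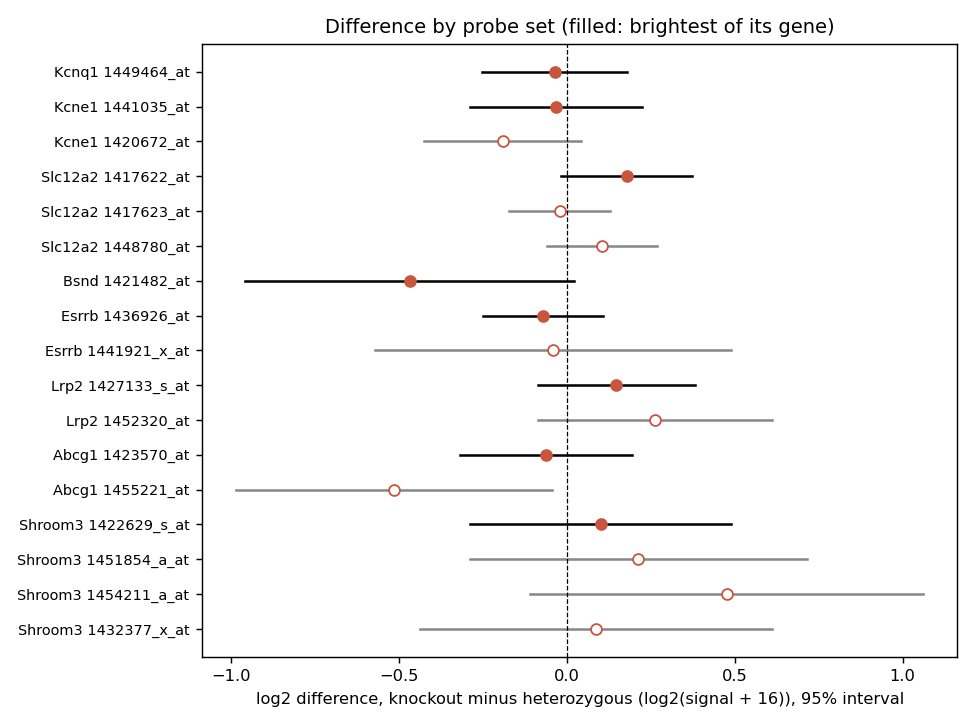
Log2 difference, knockout minus heterozygous, of the 17 tested probe sets with limma's 95% interval; filled points mark the brightest probe set of a gene. Only the interval of Abcg1 1455221_at lies wholly below 0, with an upper end of -0.045, and its adjusted p of 0.394 did not pass.

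Lrp2, or megalin, the large endocytic receptor of the apical membrane, was higher than the heterozygous mean in all 3 knockout samples on both tested probe sets. Probe set 1427133_s_at gave 4282, 3904 and 3695 in heterozygous samples and 4154, 4863 and 4154 in knockout samples (log2 difference 0.15, 95% interval -0.087 to 0.38). Probe set 1452320_at gave 2849, 2248 and 2014 in heterozygous samples and 3144, 2951 and 2406 in knockout samples (log2 difference 0.26, 95% interval -0.086 to 0.61, limma adjusted p = 0.547). Heterozygous replicate 1 lay within the knockout range on both, so the groups overlapped. Without that sample the differences were 0.20 and 0.40, and without knockout replicate 4 they were 0.071 and 0.23. The remaining probe set (1445901_at) gave 0.534 to 21.8, under the filter.

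Abcg1, a transporter that moves cholesterol out of cells, was read differently by its 2 probe sets. The bright 1423570_at gave 4632, 4821 and 4470 in heterozygous samples and 3738, 4843 and 4836 in knockout samples. Only knockout replicate 2 stood apart, and the log2 difference was -0.063 (95% interval -0.32 to 0.19), or 0.061 without that array. The dimmer 1455221_at gave 384, 375 and 394 in heterozygous samples and 245, 221 and 339 in knockout samples. Here the heterozygous samples were tight and every knockout sample lay below them. The log2 difference was -0.52 ± 0.21 SE (95% interval -0.99 to -0.045, limma unadjusted p = 0.0348 and adjusted p = 0.394), and across the alternatives it ran from -0.69 to -0.39. The 2 probe sets differed by 0.82 in their deviation in knockout replicate 4, by 0.31 in replicate 2 and by 0.23 in replicate 6. Abcg1 is also made by macrophages, whose 10 markers summed to 7168 to 10274 in heterozygous and 8278 to 10158 in knockout samples. C1qb and Csf1r had the largest signals of these, with heterozygous means of 4157 and 2747. Of the 10, 8 had a log2 difference above 0, and 2 had every knockout sample above every heterozygous one. Over all 12421 genes these counts were 5358 and 754. The part of macrophages in the Abcg1 values was not tested.

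Shroom3, an actin-binding protein that narrows the apex of epithelial cells, had a log2 difference above 0 on all 4 tested probe sets, and none passed. The brightest, 1422629_s_at, gave 1044, 1164 and 922 in heterozygous and 1288, 909 and 1182 in knockout samples (log2 difference 0.10, 95% interval -0.29 to 0.49). Knockout replicate 4 was the lowest sample and the other knockout samples the highest. Probe set 1454211_a_at gave 181, 104 and 174 in heterozygous and 255, 180 and 210 in knockout samples. Its log2 difference was 0.48 (95% interval -0.11 to 1.06, limma adjusted p = 0.512), and 0.24 without heterozygous replicate 3, its lowest sample. The other tested probe sets gave 0.21 (1451854_a_at) and 0.087 (1432377_x_at). After quantile normalisation the differences of the 4, from the brightest to the dimmest, were 0.14, 0.12, 0.32 and -0.11. The brightest turned to -0.0031 without knockout replicate 2. Probe set 1453714_a_at lay under the filter at 26.8 to 49.8.

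Read array by array, the probe sets showed no common shift with genotype. Of the 17, 5 had all 3 knockout samples above the heterozygous mean, 4 had all 3 below it, and 8 were mixed. Over all probe sets tested, these shares were 23.7% above, 17.7% below and 58.5% mixed. Knockout replicate 4 was the highest array for 4 of the 8 genes and the lowest for 2, and over all genes it was the highest for 22.7% and the lowest for 36.2%. Heterozygous replicate 1 was the highest for Kcnq1, Bsnd and Esrrb, and for 15.9% of all genes. That sample was also the highest for 4 of the 8 epithelial markers, Epcam (5170, against 3425 to 4318 in the other arrays), Krt18 (6149, against 4351 to 5303), Krt8 and Cldn7. It was the lowest for Cdh1 and neither for the other 3, Cldn3, Cldn8 and Esrp1, and the summed signal of the 8 was highest there. The part of epithelial content in these values was not tested.

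**Figure D4:**
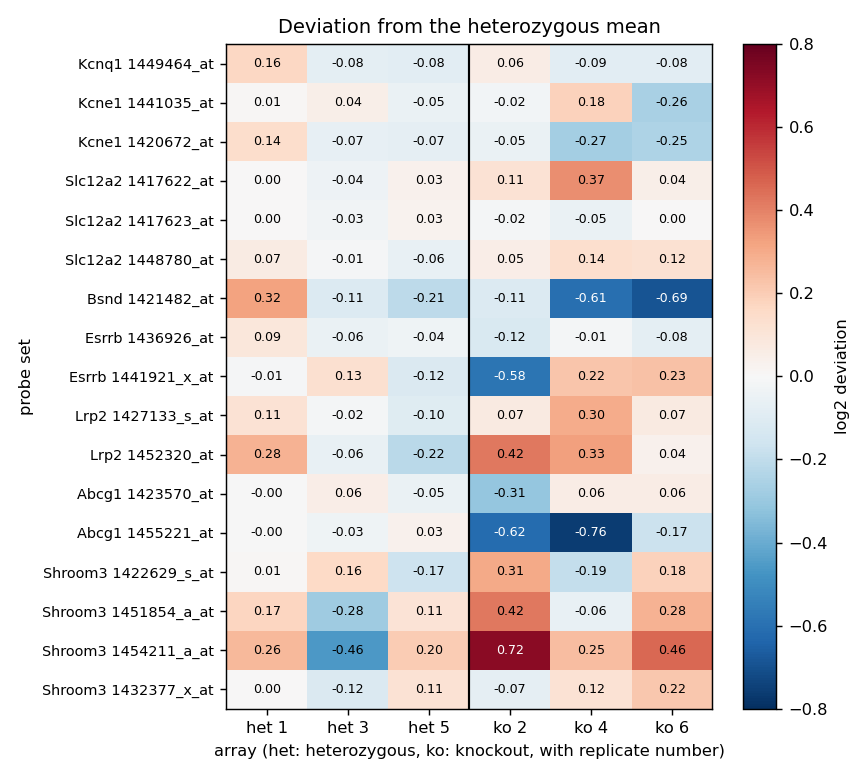
Log2 deviation of each tested probe set from its heterozygous mean in the 3 heterozygous (left) and 3 knockout (right) arrays; red is higher, blue lower. Bsnd is lowest in knockout replicates 4 and 6 (-0.61 and -0.69), and Abcg1 1455221_at in replicates 4 and 2 (-0.76 and -0.62).

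For each of the 8 genes, between 515 and 4682 other genes had a nearer pattern over the 6 arrays than the nearest of the 8. Likeness was taken as the root mean square difference after centring each gene and scaling it to unit SD, where 0 means the same pattern. The nearest of the 8 to Bsnd was Kcnq1 at 0.582, with 515 other genes nearer. For Slc12a2 it was Lrp2 at 0.550, and for Kcne1 it was Slc12a2 at 0.862. The genes closest to Kcnq1 were Il17ra, Hspbp1 and Rbck1 (0.144 to 0.148), those closest to Bsnd were Snrnp35, Smim26 and AA414768 (0.171 to 0.212), and those closest to Slc12a2 were Pnn, Sult6b1 and Nktr (0.0552 to 0.0637). For Kcne1 they were Rnf11, Rfesd and Zfp182, for Esrrb Sprr1a, Thumpd2 and Me2, for Lrp2 Zbtb14, Heg1 and D5Ertd579e, for Abcg1 Zfp710, Pbrm1 and Sos1, and for Shroom3 Cby1, Rbmx2 and Znhit3. With 12421 genes and 6 arrays many genes share any pattern, and these are descriptions.

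Genes whose products work with these 8 did not pass the test either. Of 56 partner genes, 48 had a probe set of their own name and 41 were tested. At a limma adjusted p under 0.05, 0 were called, against 0.00805% of all genes (1 gene). At an unadjusted p under 0.05 there were 5, with 1 higher and 4 lower, or 12.2% where 6.44% of all genes passed. The groups did not overlap for 5 of the 41, against 13.1% of all genes. The median log2 difference was -0.00091, with 20 higher and 21 lower.

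Among transport partners, the brightest probe sets of Atp1b1 and Atp1b2 read near the top of the scale and were highest in knockout replicate 4. Of the similarly bright gap junction genes, Gjb2 was also highest there (11023) and Gjb6 lowest (8182). Atp1b1, a sodium pump beta subunit, gave 8283, 8547 and 8801 in heterozygous and 9149, 10644 and 9130 in knockout samples (log2 difference 0.17, limma adjusted p = 0.443), with no overlap. Its next brightest probe set gave 0.18, and the dimmer ones -0.14 and -0.23. Atp1b2, another sodium pump beta subunit, gave 8959, 9131 and 9280 against 8972, 11315 and 9649 (0.12), and -0.11 on its dimmer probe set. Stk39, the kinase SPAK that activates Slc12a2, differed by -0.048 (95% interval -0.23 to 0.13), and Wnk4 and Wnk2, kinases upstream of it, by 0.30 and 0.31.

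For potassium recycling, 5 of 6 tested genes were below 0, as were 7063 of all 12421 genes. Of the 5, Gjb6 lay at -0.00091. Kcnma1, the large-conductance calcium-activated potassium channel, gave 1579, 1790 and 1327 in heterozygous and 813, 1123 and 1123 in knockout samples. The groups did not overlap, and the log2 difference was -0.62 ± 0.18 SE (limma unadjusted p = 0.00641, adjusted p = 0.371). A dimmer Kcnma1 probe set gave -0.57 and the dimmest tested one 0.47. Kcnj16, an inward rectifier, stood at -1.07 with 791 to 4214 in heterozygous samples alone, highest in heterozygous replicate 5 as Slc26a4 was. Gjb2, a gap junction protein, differed by 0.19 (limma adjusted p = 0.466), and Kcnj10, the channel of intermediate cells, by -0.30 (limma adjusted p = 0.482).

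Around the other marginal cell genes, some of the listed partners of Esrrb, Abcg1 and Shroom3 had unadjusted p under 0.05. Esrrg, a receptor of the Esrrb family, gave 2009, 1948 and 1508 in heterozygous and 1040, 1188 and 1537 in knockout samples (log2 difference -0.54, limma adjusted p = 0.371). Knockout replicate 6 lay just above heterozygous replicate 5, so the groups overlapped. Nrip1, listed with the Esrrb relatives, differed by -0.20 (limma adjusted p = 0.559). Lcat, which esterifies cholesterol on lipoproteins, gave 249, 399 and 526 against 520, 1046 and 900 (1.04, limma adjusted p = 0.371), with overlap at 526 and 520. The cholesterol transporter Abca1 differed by 0.16. Shroom2, a relative of Shroom3, gave 2303, 2540 and 2179 against 1841, 1728 and 2094 (-0.31, limma adjusted p = 0.392). Vangl2, a planar polarity protein, gave 713, 640 and 663 against 464, 504 and 532 (-0.42, limma adjusted p = 0.380), with no overlap in either, but a dimmer Vangl2 probe set gave 0.33. Of the endocytic partners of Lrp2, the adaptor Dab2 differed by 0.21 and the chaperone Lrpap1 by 0.10, and none of the 3 tested had an unadjusted p under 0.05.

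**Figure D5:**
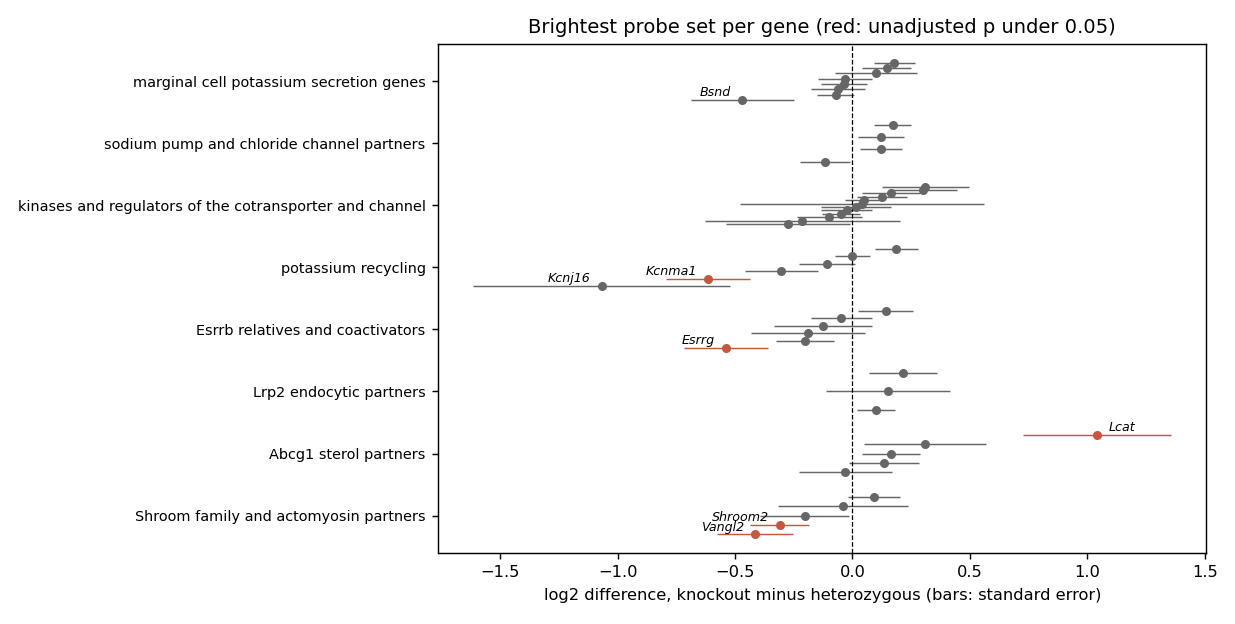
Log2 difference with standard error of the brightest probe set of the 8 potassium secretion genes and of 41 tested partner genes, by list; red marks an unadjusted p under 0.05. The 8 genes lie between -0.47 and 0.18, and Kcnma1, Esrrg, Lcat, Shroom2 and Vangl2 are red.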

How the data were processed

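RNA was amplified with the NuGEN Ovation protocol and put on Affymetrix mouse expression arrays, per the labels' protocols. The authors deposited signal intensity values, linear and made with GCOS per the submitters' processing notes, and version and summary algorithm are not given in the sources used here. Means of all arrays, trimmed by 2% at both ends, equalled 500.002, so the arrays shared a trimmed mean and were not rescaled. Their medians still differed, from 76.7 to 82.3 in heterozygous and from 88.8 to 105 in knockout samples. The part of this in the differences of dim probe sets was not tested. Genotype came from the titles. The 64 control probe sets were left out. Values were log2(signal + 16), which understates changes of dim genes. Probe sets with a mean signal under the 40th percentile (46.3) were removed, leaving 27022. Moderated linear models (limma 3.58.1, R 4.3.3, variance trend on) compared the genotypes two-sided, and p-values were adjusted by Benjamini-Hochberg at 0.05. The fit was checked on data drawn from known means. Of 45037 probe sets 34945 had 1 symbol, 932 several and 9160 none. All 8 gene identifiers matched RefSeq, with no symbol changed.

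The 8 genes and the lists were chosen with earlier results of these data known. Named with values were all 8 genes and their probe sets, Slc26a4, fixed partner genes, up to 2 genes per partner list by smallest p, and the 3 nearest patterns per gene. The epithelial markers and Kcnj16 were named after their values were seen. Alternatives were offsets of 1 and 64, quantile normalisation, centring on the median, filters at no or the 60th percentile, an untrended variance, array weights, fitting 1 probe set per gene, the mean of probe sets, and leaving out each array. The number of arrays limits precision. Figures used matplotlib 3.10.9 in Python 3.11.15.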

Additional observations from a re-analysis of the deposited data

How the results depend on the processing

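No probe set of the 8 genes and no partner gene was called in any of 15 alternative settings. The count over all probe sets, 1 with all samples, was 3 after quantile normalisation, 0 with no filter or a 60th percentile filter, 23 with array weights and 11 with 1 probe set per gene, and it ranged from 0 to 13 when each array was left out in turn. It was 13 without knockout replicate 4, 2 without heterozygous replicate 1, and 0 without knockout replicate 2, knockout replicate 6 or heterozygous replicate 5. The median of the 8 genes ranged from -0.069 to 0.022 over those omissions and was -0.035 with all samples, a move of more than 1 SD between replicates (0.047) only without knockout replicate 6. Signs turned for Kcnq1 (0.035 with array weights, and -0.085 to 0.045 when arrays were left out), Kcne1 (-0.14 to 0.081), Abcg1 (-0.13 to 0.061), Shroom3 (-0.0031 to 0.24, and -0.11 for 1432377_x_at after quantile normalisation) and Esrrb 1441921_x_at (-0.18 to 0.23). The cause was not tested. Bsnd relative to Kcnq1 stayed between -0.56 and -0.35 in 11 settings, and Slc26a4 between -2.23 and -1.02 in 15. The genotypes share no replicate number, and the labels do not say whether any arrays were paired. The fit treated the arrays as unpaired, and no paired analysis was run. Probe sets under the filter cannot show a difference above background.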

Other observations

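Among 950 genes whose brightest probe set lay in the brightest 10% of genes, the brighter probe set deviated from the heterozygous mean by a median of 0.18 more than the next one in knockout replicate 4, by -0.0074 in knockout replicate 2 and by -0.010 in knockout replicate 6. Slc12a2, Kcne1 and Abcg1 had gaps of 0.43, 0.46 and 0.82 in knockout replicate 4, while those of Lrp2, Shroom3 and Esrrb were -0.031, -0.13 and -0.23.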
